A study of Homo sapiens with 2 samples.

Results

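The genes described here are 9 transcriptional targets of the tumour suppressor p53, namely MDM2, CCNG1, BTG2, ZMAT3, SESN1, TP53INP1, AEN, PHLDA3 and GDF15. They were taken by name, out of 25702 genes in the count files. The symbols of 8 of them stood in the authors' deposited table, and PHLDA3 was reached through its Entrez ID alone. RNA was sequenced from K562, an erythroid leukemia line that carries BCR-ABL1 and is known to lack functional p53. The cabozantinib library came from asynchronous cells kept for 48 h with cabozantinib (XL184) at 1 µM, a kinase inhibitor whose targets include MET and the VEGF receptors. The DMSO library came from cells kept for 48 h in that vehicle. Each group held 1 library, so nothing below has a replicate check, the conditions could not be tested, and each difference is given by its size and its counting error.

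p53 is a transcription factor that is held at low levels by the ubiquitin ligase MDM2 and accumulates after DNA damage and other stress. It binds a pair of decamers in the DNA of its target genes, and these encode arrest, repair, death and metabolic proteins as well as inhibitors of p53 itself. Many of these genes also have promoters or enhancers that other factors use, so that they are transcribed in cells without p53. In blood cells, loss of p53 is a known step of progression in chronic myeloid leukemia, the disease from which K562 came.

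Promoter windows from RefSeq on GRCh38.p14, 250 bases before to 50 after a transcript start, were matched for 7 of the 9 genes, with 14 windows in all. PHLDA3 and TP53INP1 were not matched. The windows were searched on both strands for the p53 site. This was taken as a pair of 10-base decamers of the published consensus, at most 13 bases apart, with at most 2 mismatches and the core C and G kept in each. Such a site was found in the windows of 2 of the 7 genes, MDM2 and AEN, and in 2.93% of all 35116 windows. An exact single decamer was found in a SESN1 window and in the AEN window, and in 6.63% of all windows. The motif TGATGNAAN of ATF4 and CHOP was in no window of the 7 genes and in 3.61% of all windows. The AP-1 motif TGANTCA was in windows of MDM2 alone (7.71% of all windows) and the E-box CACGTG in that of AEN alone (7.26%). The decamer of AEN is the first of its pair.

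The windows of MDM2 and AEN are printed because they hold a p53 site, shown in capitals, and those of BTG2 and GDF15 because these genes had the largest differences of the set. The MDM2 window lies at the internal promoter that p53 is known to use, chr12:68808767-68809066 on the plus strand. The site that met the limits above runs from -94 to -75 of the transcript start. Pairs in which a decamer lacks the core C or G were not searched for, so others of that kind would stand in lower case. The AEN window is chr15:88621090-88621389 on the plus strand, with the site from -34 to -15. The BTG2 window is chr1:203305269-203305568 and the GDF15 window chr19:18385908-18386207, both on the plus strand. These 2 windows held no match to any of the motifs searched, at the limit of at most 2 mismatches for the p53 site. Near its end the GDF15 window holds 2 adjacent decamers that keep the core C and G but exceed that limit.
MDM2: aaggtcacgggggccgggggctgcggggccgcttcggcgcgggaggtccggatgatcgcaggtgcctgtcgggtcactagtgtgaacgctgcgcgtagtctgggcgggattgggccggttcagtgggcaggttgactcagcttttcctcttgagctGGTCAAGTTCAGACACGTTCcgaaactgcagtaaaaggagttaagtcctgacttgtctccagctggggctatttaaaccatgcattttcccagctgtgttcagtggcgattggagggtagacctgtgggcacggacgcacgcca
AEN: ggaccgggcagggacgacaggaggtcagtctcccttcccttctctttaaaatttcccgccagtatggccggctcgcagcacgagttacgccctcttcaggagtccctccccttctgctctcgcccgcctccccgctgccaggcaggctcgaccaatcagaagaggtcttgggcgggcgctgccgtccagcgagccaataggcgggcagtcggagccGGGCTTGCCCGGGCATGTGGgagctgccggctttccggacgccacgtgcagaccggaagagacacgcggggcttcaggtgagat
BTG2: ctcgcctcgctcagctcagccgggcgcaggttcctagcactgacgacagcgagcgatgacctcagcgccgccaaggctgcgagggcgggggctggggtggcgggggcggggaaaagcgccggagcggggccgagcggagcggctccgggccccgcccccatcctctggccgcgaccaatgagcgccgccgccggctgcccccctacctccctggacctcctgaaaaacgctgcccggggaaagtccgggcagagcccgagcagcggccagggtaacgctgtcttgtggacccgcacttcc
GDF15: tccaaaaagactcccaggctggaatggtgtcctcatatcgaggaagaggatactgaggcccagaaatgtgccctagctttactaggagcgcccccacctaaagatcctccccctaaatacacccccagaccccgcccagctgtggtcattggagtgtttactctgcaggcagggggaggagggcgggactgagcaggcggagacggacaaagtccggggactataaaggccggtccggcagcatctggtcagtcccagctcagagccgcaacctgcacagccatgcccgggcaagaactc

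The cabozantinib library held 25505289 counts and the DMSO library 25025243. At this depth 12536 genes were measured, meaning that their level reached 1 CPM (counts scaled to a TMM-scaled library size of 1e+06) in at least 1 library. All 10 K562 and erythroid markers were measured, with summed levels of 37450 CPM with cabozantinib and 13432 CPM in DMSO, and 9 of them were higher with cabozantinib. Of 12 markers of other cells, 6 were measured and 4 of those were lower. Their summed level was 102 CPM with cabozantinib and 104 CPM in DMSO, most of it from EPCAM, and MS4A1 and KRT5 had 0 counts in both libraries. Their part in the results below was not tested. CDKN2A, which encodes an inhibitor of MDM2, and its neighbours CDKN2B and MTAP had 0 counts with cabozantinib and in DMSO, where a count of 0 leaves room for 3. K562 is known to carry a deletion there.

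Of the 8 targets measured, BTG2 and SESN1 were higher with cabozantinib and GDF15 was lower, while 5 lay within 1.5-fold. A gene was called higher or lower at 1.5-fold or more, a log2 size of 0.58, with a 95% counting interval (exact, Clopper-Pearson) that excluded no change. By that rule 8.15% of all measured genes were higher and 12.3% were lower. The median log2 ratio of the 8 targets was -0.10, against 0.01 over all measured genes, with a range from -2.06 to 1.33. It was -0.01 without GDF15. PHLDA3 had no counts and entered neither the counts nor the median. In bulk RNA, fewer cells of a type and less RNA per cell cannot be told apart, which holds for every level given here.

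**Figure D1:**
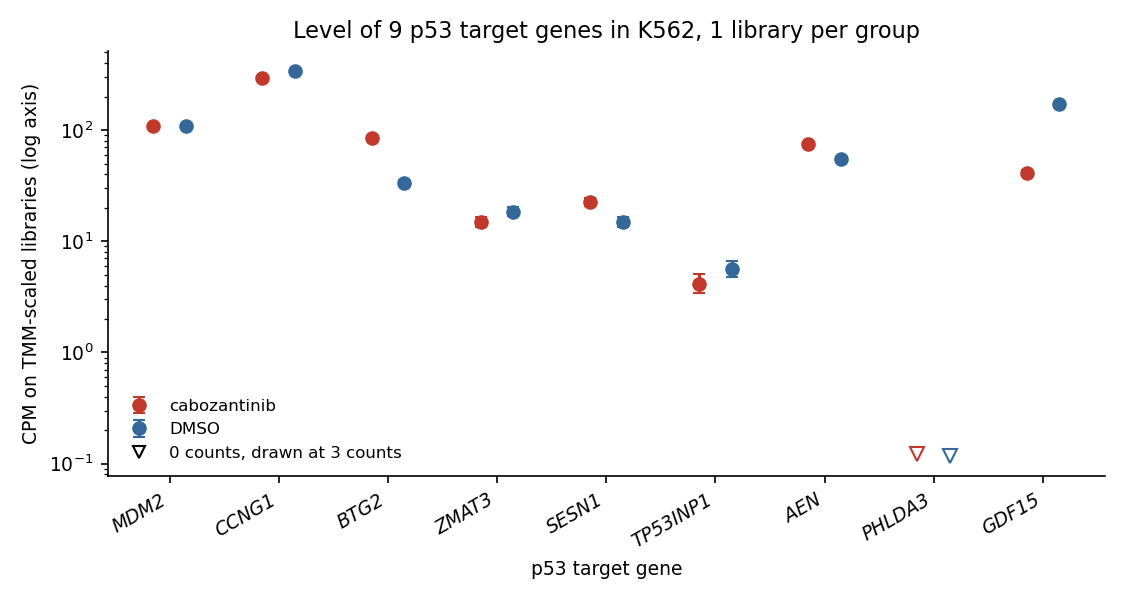
Level of each of the 9 p53 targets in CPM (log axis) in the cabozantinib library (red) and the DMSO library (blue), 1 library each, with exact 95% counting intervals where they exceed the symbol. BTG2 stood at 84.4 CPM with cabozantinib and 33.5 CPM in DMSO, GDF15 at 41.1 CPM with cabozantinib and 171.8 CPM in DMSO, and PHLDA3, drawn as open triangles at the limit of 3 counts, had 0 counts in both.

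The genes that feed back on p53 differed little. MDM2 (Entrez 4193, hg19 chromosome 12, 69201971 to 69239212), the ubiquitin ligase that degrades p53, had 2696 counts with cabozantinib and 2822 in DMSO. Its level was 108.8 CPM (104.8 to 113.0) with cabozantinib and 109.5 CPM (105.5 to 113.6) in DMSO, and the intervals overlapped nearly in full. The log2 ratio was -0.01 (-0.09 to 0.07). Counts per gene do not separate transcripts of the internal promoter printed above from those of the upstream one.

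CCNG1 (Entrez 900, chromosome 5, 162864577 to 162872022), cyclin G1, which recruits a phosphatase to MDM2, was the most counted of the set. It had 7326 counts with cabozantinib and 8742 in DMSO, or 295.8 CPM with cabozantinib and 339 CPM in DMSO. The log2 ratio was -0.20 (-0.24 to -0.15), outside counting error but short of the 1.5-fold size.

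BTG2 (Entrez 7832, chromosome 1, 203274664 to 203278730) encodes an antiproliferative protein that recruits the deadenylase complex to messenger RNA. It had 2091 counts with cabozantinib and 863 in DMSO, so the cabozantinib library was clearly the higher. Its level was 84.4 CPM (80.8 to 88.1) with cabozantinib and 33.5 CPM (31.3 to 35.8) in DMSO. This was 2.52-fold higher (2.33 to 2.73), the 159th highest ratio of the 12536 measured genes. ZMAT3 (Entrez 64393, chromosome 3, 178735011 to 178789656), a zinc finger RNA-binding protein also known as WIG1, had 367 counts with cabozantinib and 474 in DMSO. Its log2 ratio was -0.31 (-0.51 to -0.11), within 1.5-fold.

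SESN1 (Entrez 27244, chromosome 6, 109307645 to 109415277) encodes sestrin 1, a stress protein that restrains mTORC1. Its level was 22.7 CPM (20.9 to 24.6) with cabozantinib and 15.02 CPM (13.6 to 16.6) in DMSO, on 387 counts in DMSO, and the intervals were apart. The ratio of 1.51-fold higher (1.32 to 1.72) stood at the edge of the threshold. It was not called under scaling by total counts (log2 ratio 0.51 in place of 0.59) or by the upper quartile (0.58).

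TP53INP1 (Entrez 94241, chromosome 8, 95938200 to 95961615), a p53 cofactor that also acts in autophagy, was the least abundant measured gene of the set. It had 103 counts with cabozantinib and 145 in DMSO, a log2 ratio of -0.43 (-0.82 to -0.06). The wide interval reflects these low counts and reached past 1.5-fold.

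Of the death-linked genes AEN was short of a call and PHLDA3 was not measured. AEN (Entrez 64782, chromosome 15, 89164527 to 89175512), a nuclease of apoptotic DNA breakdown, had 1844 counts with cabozantinib and 1414 in DMSO. Its level was 74.4 CPM (71.1 to 77.9) with cabozantinib and 54.9 CPM (52.0 to 57.8) in DMSO, 1.36-fold higher (1.27 to 1.45), so the intervals were apart but the size was under 1.5-fold. PHLDA3 (Entrez 23612, chromosome 1, 201434622 to 201438299), a repressor of the kinase AKT, had 0 counts in both libraries. A count of 0 leaves room for 3 counts, or 0.121 CPM with cabozantinib and 0.116 CPM in DMSO, and no ratio can be given.

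GDF15 (Entrez 9518, chromosome 19, 18496968 to 18499986) encodes a secreted stress cytokine of the TGF-beta family, and its receptor GFRAL had 0 counts in both libraries. GDF15 had 1019 counts with cabozantinib and 4428 in DMSO. Its level was 41.1 CPM (38.7 to 43.7) with cabozantinib and 171.8 CPM (166.8 to 177.0) in DMSO, far apart relative to counting error. It was 4.18-fold lower (3.90 to 4.48), the 151st lowest ratio of all measured genes. No exon of any of the 9 genes overlapped an exon of another gene in the deposited annotation.

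**Figure D2:**
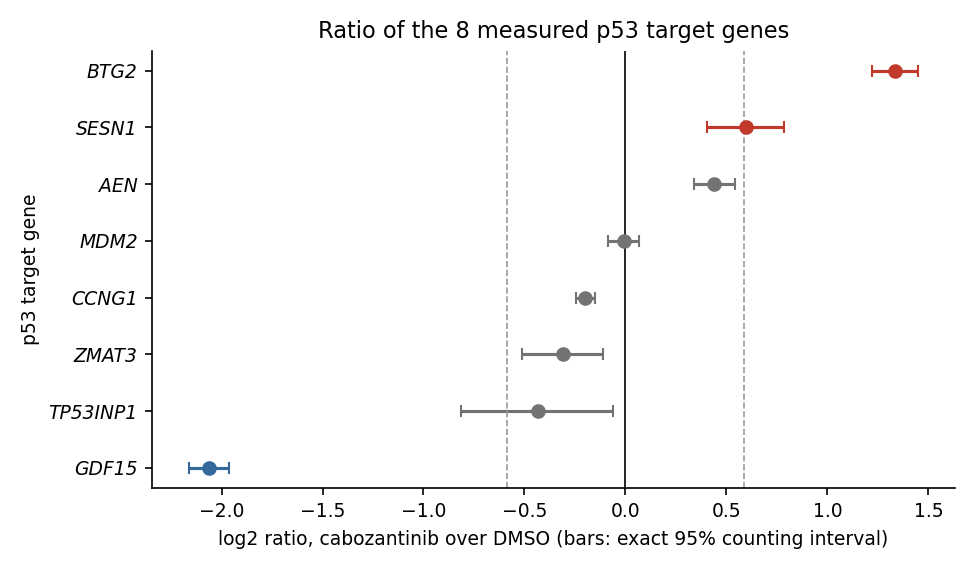
Log2 ratio of the 8 measured p53 targets, cabozantinib over DMSO, with exact 95% counting intervals and dashed lines at 1.5-fold. BTG2 (1.33) and SESN1 (0.59), in red, lay at or above the upper line, GDF15 (-2.06), in blue, lay below the lower one, and MDM2 (-0.01) lay on no change.

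Per length, in TPM (counts over gene length, scaled to the same sum in each library), the order of the set differed between libraries. With cabozantinib CCNG1 stood first at 223 TPM, ahead of GDF15 at 63.8 TPM (59.9 to 67.8) and BTG2 at 57.9 TPM (55.5 to 60.4), whose intervals overlapped. In DMSO GDF15 and CCNG1 led, at 300.4 TPM (291.7 to 309.4) and 288 TPM (282 to 295), again with overlapping intervals. AEN followed at 44.4 TPM with cabozantinib and 36.9 TPM in DMSO, and MDM2 at 27.5 TPM with cabozantinib and 31.2 TPM in DMSO. BTG2 ranked above both with cabozantinib and below both in DMSO, where it stood at 25.9 TPM (24.2 to 27.7). SESN1, ZMAT3 and TP53INP1 kept the sixth, the seventh and the eighth place in both libraries. SESN1 was at 15.3 TPM with cabozantinib and 11.4 TPM in DMSO, and TP53INP1 at 1.37 TPM with cabozantinib and 2.09 TPM in DMSO.

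The level of GDF15 relative to BTG2 can be read without any scaling, from the counts of the pair within each library. Such a share does not give the direction of either gene alone, which rests on the scaling. The pair was taken because these genes had the largest differences of the set. GDF15 took 32.8% (31.1% to 34.4%) of the 3110 counts of the pair with cabozantinib and 83.7% (82.7% to 84.7%) of 5291 in DMSO. Per length, GDF15 was 1.10 times as abundant as BTG2 with cabozantinib and 11.6 times in DMSO.

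**Figure D3:**
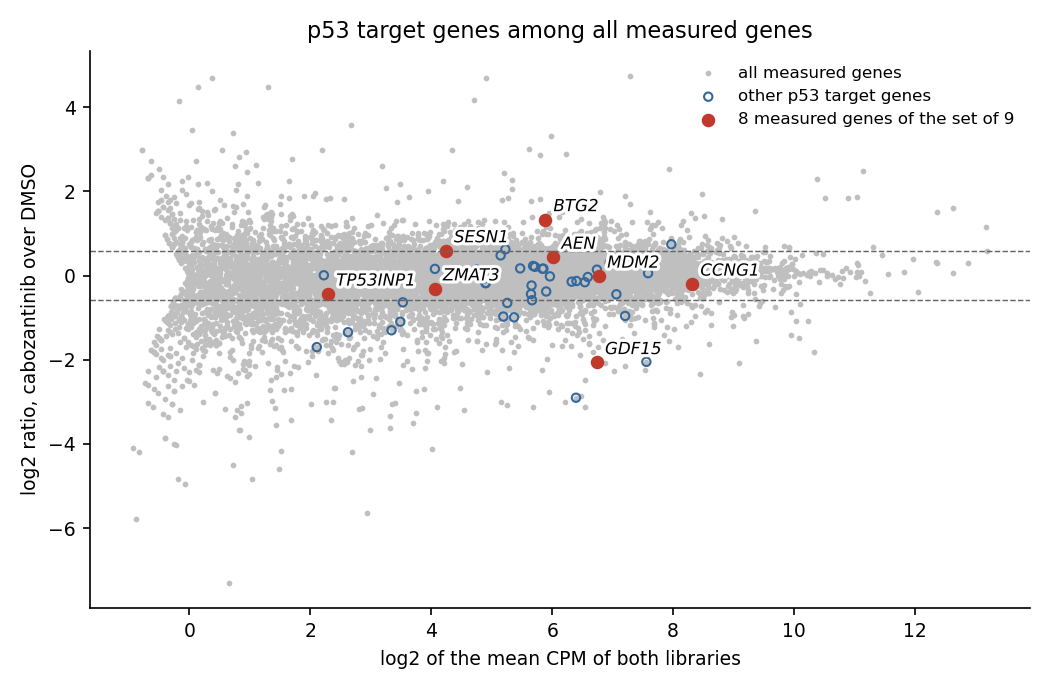
Log2 ratio, cabozantinib over DMSO, against the log2 of the mean CPM of both libraries, for 12536 measured genes (grey), 39 other p53 targets (open blue) and the 8 measured targets of the set (red, named), with dashed lines at 1.5-fold. MDM2, CCNG1, ZMAT3 and TP53INP1 lay inside the main band of genes between -0.43 and -0.01, BTG2 (1.33) lay above it and GDF15 (-2.06) below it.

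Relatives of the 9 genes, which share a protein family (or, for GFRAL, bind the product) and are not all p53 targets, were set beside them. Of 18 relatives, 15 were measured, with 1 higher, 3 lower and a median log2 ratio of 0.02. These were 6.67% higher, against 8.15% of all measured genes, and 20% lower, against 12.3%. SESN2, sestrin 2, which is a target of both p53 and ATF4, had 1815 counts with cabozantinib and 7814 in DMSO. It was 4.14-fold lower (3.93 to 4.36), whereas SESN1 was higher. SESN1 took 23.6% (21.9% to 25.4%) of the counts of the pair with cabozantinib and 4.72% (4.27% to 5.20%) in DMSO. SESN3 had 77 counts with cabozantinib and 55 in DMSO, a log2 ratio of 0.54 (0.02 to 1.07).

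BTG1, the closest relative of BTG2, had 1006 counts with cabozantinib and 1570 in DMSO, a log2 ratio of -0.58 (-0.70 to -0.47) just short of 1.5-fold. BTG2 took 67.5% (65.8% to 69.2%) of the counts of BTG2 and BTG1 with cabozantinib and 35.5% (33.6% to 37.4%) in DMSO. The more distant antiproliferative gene TOB1 was 1.52-fold higher (1.31 to 1.75), and TOB2 had a log2 ratio of 0.56. BTG3 had one of 0.07.

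CCNG2, cyclin G2, a known FOXO target, was 3.24-fold lower (2.52 to 4.26), on 77 counts with cabozantinib and 261 in DMSO. CCNG1 took 99.0% of the counts of the pair with cabozantinib and 97.1% in DMSO. MDM4, the relative of MDM2 that blocks the activation domain of p53, had a log2 ratio of 0.02 (-0.10 to 0.13). MDM2 took 68.3% (66.8% to 69.7%) of the counts of MDM2 and MDM4 with cabozantinib and 68.6% (67.2% to 70.1%) in DMSO, with overlapping intervals. Of the relatives of PHLDA3, PHLDA1 had 19 counts with cabozantinib and 42 in DMSO and was 2.10-fold lower (1.21 to 3.87). PHLDA1, which is among the 3 relatives counted as lower, passed the filter through DMSO alone, at 1.63 CPM against 0.77 CPM with cabozantinib. PHLDA2 had 83 counts with cabozantinib and 100 in DMSO. The remaining measured relatives, CCNI, TP53INP2, ZMAT2, ISG20L2 and GDF11, lay within 1.5-fold, with log2 ratios from -0.26 to 0.43.

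**Figure D4:**
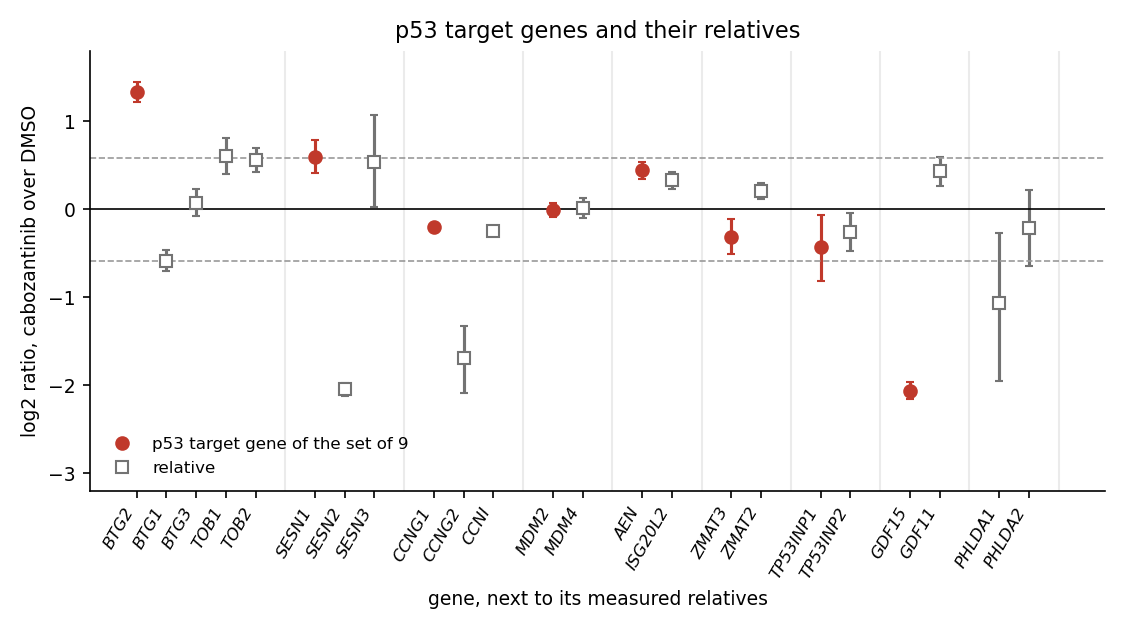
Log2 ratio, cabozantinib over DMSO, of each measured p53 target of the set (red circles) beside its measured relatives (open squares), with exact 95% counting intervals and dashed lines at 1.5-fold. SESN1 (0.59) and SESN2 (-2.05) lay on opposite sides of no change, as did BTG2 (1.33) and BTG1 (-0.58), while MDM2 (-0.01) and MDM4 (0.02) lay together; PHLDA3 has no ratio.

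Beyond the 9 genes, 53 other p53 targets were listed, and 39 of them were measured. Of these 2 were higher (5.13%, against 8.15% of all measured genes) and 11 lower (28.2%, against 12.3%). Their median log2 ratio was -0.14, against 0.01 over all measured genes. SESN2, which the ATF4 and CHOP list also holds, is 1 of the 11. Without it 10 of 38 were lower. This overlap depends on the genes put on that list. Whether others of the 11 respond to ATF4 or CHOP was not tested.

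Among only 4 measured genes of cell cycle arrest 3 were lower (75%, against 12.3% of all measured genes). CDKN1A, the inhibitor p21 and the best known p53 target, had 86 counts with cabozantinib and 228 in DMSO and was 2.54-fold lower (1.98 to 3.31). GADD45A, a stress sensor, was 1.94-fold lower (1.85 to 2.04), and the kinase gene PLK3 2.14-fold lower (1.79 to 2.57). BTG1 was the fourth.

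Of 9 measured apoptosis genes 1 was higher (11.1%, against 8.15% of all measured genes) and 4 were lower (44.4%, against 12.3%). TNFRSF10B, the TRAIL receptor DR5, had 491 counts with cabozantinib and 3820 in DMSO, and at 7.47-fold lower (6.81 to 8.23) it differed most of the 39 measured genes of the list. BBC3, which encodes the BH3 protein PUMA, was 1.99-fold lower (1.81 to 2.18), on 685 counts with cabozantinib and 1417 in DMSO. The other two lower genes were PMAIP1, which encodes NOXA, and APAF1, at 1.96-fold and 1.57-fold. TRIAP1, an inhibitor of apoptosis, was 1.54-fold higher (1.41 to 1.69). BAX, the pore-forming effector, had a log2 ratio of 0.21 (0.10 to 0.32). FAS, another death receptor, had 7 counts with cabozantinib and 14 in DMSO, below 1 CPM in both. PERP, a membrane protein of apoptosis, had 0 counts with cabozantinib and 16 in DMSO, with a level below 1 CPM in both. Its DMSO count set against a limit of 3 counts for the cabozantinib library gives 5.13-fold lower, and the exact counting interval starts at 3.71-fold lower.

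In DNA repair and nucleotide supply, PCNA, the sliding clamp of DNA polymerase, was 1.68-fold higher (1.62 to 1.74), with 7774 counts with cabozantinib and 4826 in DMSO. DDB2, a sensor of ultraviolet damage, was 1.55-fold lower (1.31 to 1.84), and the other 3 measured genes lay within 1.5-fold. All 4 genes of the feedback group, PPM1D, FBXO22, RCHY1 and COP1, lay within 1.5-fold, with log2 ratios from -0.24 to -0.03. In the metabolism group SESN2 alone was called, of 5 measured. The remaining group of 12 measured genes had 2 lower. These were CYFIP2 at 3.25-fold (2.37 to 4.57), on 50 counts with cabozantinib and 170 in DMSO, and NINJ1 at 2.46-fold (2.03 to 3.01). The share lower was 20% in the DNA repair group, 20% in the metabolism group and 16.7% in the remaining group, against 12.3% of all measured genes. Like PHLDA3, 5 listed targets had 0 counts in both libraries, PLK2, TP53AIP1, SPATA18, TNFRSF10D and KITLG.

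**Figure D5:**
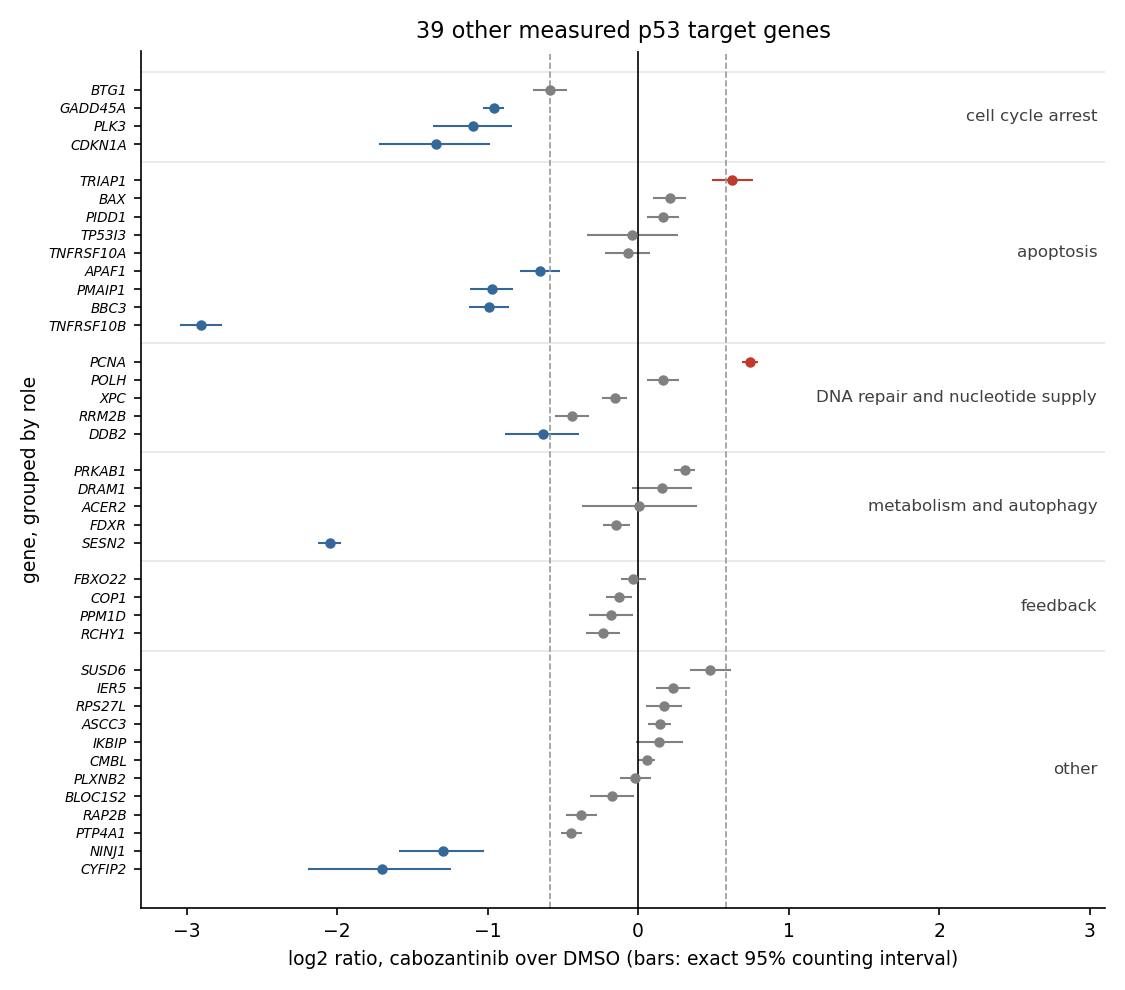
Log2 ratio, cabozantinib over DMSO, of 39 other measured p53 targets grouped by role, with exact 95% counting intervals and dashed lines at 1.5-fold. Genes called lower (blue, 11) were in every group but feedback, from DDB2 at -0.63 to TNFRSF10B at -2.90, and those called higher (red) were PCNA (0.74) and TRIAP1 (0.62).

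Of 19 p53 paralogs and regulators 16 were measured, with 2 higher (12.5%), 0 lower and a median log2 ratio of 0.28. Over all measured genes 8.15% were higher, 12.3% were lower and the median was 0.01. TP73, the p53 paralog p73, had 140 counts with cabozantinib and 63 in DMSO. Its level was 5.65 CPM with cabozantinib and 2.44 CPM in DMSO, 2.30-fold higher (1.71 to 3.16). Full-length and truncated p73, which act in opposite ways on target genes, are not separated in counts per gene. TP63 had 17 counts with cabozantinib and 15 in DMSO, below 1 CPM. TP53BP2, which encodes the apoptosis-stimulating protein ASPP2, was 1.53-fold higher (1.46 to 1.61). The damage kinase genes ATM and CHEK2 had log2 ratios of 0.51 and 0.37, within 1.5-fold, and CHEK1 one of 0.04.

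Active p53 is known to lower cell cycle genes through p21 and the DREAM repressor complex. Of 18 such genes, all measured, 1 was higher (5.56%) and 0 were lower, with a median log2 ratio of 0.29. Over all measured genes 8.15% were higher and 12.3% lower. FOXM1, a regulator of mitotic genes, was the 1 called, 1.54-fold higher (1.44 to 1.64).

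GDF15 is also a known target of ATF4 and CHOP, stress factors of the amino acid and endoplasmic reticulum responses. All 16 listed targets of these factors outside the 9 genes were measured, and 16 of 16 were lower (median log2 ratio -1.89). Of all measured genes 12.3% were lower. The list was chosen with earlier results of these data known, so this count is not independent support. A part of these factors in the level of GDF15 was not tested. TRIB3, a pseudokinase, was 5.04-fold lower (4.84 to 5.24), ATF3 4.70-fold lower (4.27 to 5.19) and CHAC1 7.96-fold lower (7.19 to 8.85). VLDLR was 9.22-fold lower (4.71 to 23.3), and NUPR1 15.96-fold lower (5.12 to 168) on 2 counts with cabozantinib and 41 in DMSO. DDIT3, which encodes CHOP, had 1116 counts with cabozantinib and 4072 in DMSO and was 3.51-fold lower (3.28 to 3.75). Among 11228 other measured protein-coding genes, DDIT3 also had the smallest distance to GDF15, 0.178 in log2 CPM over the 2 libraries. GAB2 (0.195) and FAM129A (0.304) came next. DDIT3 was not the nearest in either library alone. With cabozantinib GAB2 (44.89 CPM) was nearer to GDF15 than DDIT3 (45.05 CPM). In DMSO FAM129A (165.2 CPM) was nearer than DDIT3 (158.0 CPM). The genes nearest to BTG2 were RAB3IL1, UROS and FAM83D, and those nearest to SESN1 were MAST3, ZNF84 and RAMAC. A likeness over 2 libraries rests on 2 values per gene.

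The authors' deposited table gave posterior probabilities of differential expression to the same data. At 0.95 or more, the authors' deposited table had 1.39% of its genes higher and 3.27% lower. Among the 8 targets it held, the authors' deposited table called BTG2 higher, at a shrunken fold of 2.505, and GDF15 lower, at 0.238. SESN1 had a shrunken fold of 1.501 and a posterior probability of 0.123 in the authors' deposited table. Of the other p53 targets it held (5 of 53 were not in it), 0 were called higher and 10 lower in the authors' deposited table. The 10 included PERP (posterior probability 0.996), which was below 1 CPM in both libraries. They did not include APAF1 (0.244) or DDB2 (0.179), which were called lower here. At a size of 2-fold in place of 1.5-fold, 2.71% of all measured genes were higher and 5.76% lower. BTG2 and GDF15 passed that size, and SESN1 did not.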

How the data were processed

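RNA was sequenced from 1 K562 library treated with cabozantinib and 1 treated with DMSO. Per the labels' protocols, libraries were strand-specific TruSeq libraries of total RNA. The deposited files hold raw counts per Entrez gene, and the alignment was made with Rsubread on hg19, per the file headers. The labels and headers do not state how counting treated strand and multi-mapping reads. The authors' deposited table holds, per gene, posterior probabilities and a fold ratio. The labelled counts showed that this ratio is cabozantinib over DMSO. Its 4 unlabelled columns of values per library were not used.

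Libraries were scaled by TMM (edgeR 4.0.16, R 4.3.3). A log2 ratio compares counts plus 0.5 over effective library size. Genes with 1 CPM or more in at least 1 library were called measured. Calls needed 1.5-fold and an exact 95% interval of the ratio of both counts that excluded no change. Intervals and the limit of 3 counts for a count of 0 cover counting error only. No p-value was computed. TPM used the deposited gene lengths. The interval code was tested on simulated counts. Promoters and gene types came from RefSeq (GRCh38.p14), matched by gene ID, and no position was carried between builds.

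The 9 genes and the gene lists were chosen with earlier results of these data known. All of the 9 genes, their relatives and the p53 paralogs and regulators could be named, and up to 4 genes each way of the other lists, by the interval bound nearest no change, plus CDKN1A, TNFRSF10B, BAX, BBC3, FAS, SESN2, DDIT3, ATF3 and TRIB3. Other genes named (in role groups, at 0 counts, or among markers) were chosen after their values were seen. The result for 1 gene of the lists is not reported here, and its list is summarised without it. Alternatives covered scaling (upper quartile, total counts, size factors of DESeq2 1.42.0), pseudocount, filter, size threshold and the deposited fold. Python 3.11.15 with scipy 1.17.1 was used.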

Additional observations from a re-analysis of the deposited data

How the results depend on the processing

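Of 40 ratios of the 8 measured targets recomputed under scaling by total counts, DESeq2 size factors or the upper quartile, a pseudocount of 5 or the deposited shrunken fold, 38 stayed inside the counting interval and 0 reversed a call. The other two were MDM2 (-0.09) and CCNG1 (-0.28) under scaling by total counts, which moved the median of all genes to -0.07. The number of targets of the set called higher was 1, BTG2 alone, in place of 2 under scaling by total counts, under upper quartile scaling and at a 2-fold threshold. The number called lower was 1, GDF15, under all 8 alternatives. Among the other p53 targets, 1 was higher under scaling by total counts and 0 at a 2-fold threshold, in place of 2, and 6 were lower at a 2-fold threshold, in place of 11. Under the other alternatives 11 or 12 were lower, BTG1 or PERP being the addition. The median of the set ranged from -0.19 to -0.10 and that of the other p53 targets from -0.23 to -0.14. Fewer genes pass a 2-fold size by construction, and another scaling shifts every log2 ratio by the same amount. No paired analysis was possible because each group holds 1 library. Depth limits TP53INP1, PHLDA3 and the genes under 1 CPM, and differences between cultures were not measured.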

Other observations

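FOXO transcription factors, which AKT signalling holds inactive, are known to drive some genes of the sestrin and cyclin G families. Of 16 listed FOXO targets outside the 9 genes, 14 were measured, with 2 higher, 4 lower and a median log2 ratio of -0.15. These were 14.3% higher, against 8.15% of all measured genes, and 28.6% lower, against 12.3%. CITED2, a coactivator, was 1.67-fold higher (1.57 to 1.77) and BCL2L11, which encodes the BH3 protein BIM, 1.57-fold higher (1.41 to 1.76). The lower ones were CCNG2 and GADD45A, described above, BCL6 at 1.69-fold (1.45 to 1.99) and PIK3IP1 at 2.22-fold (1.41 to 3.66), the last on 27 counts with cabozantinib and 63 in DMSO.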
